A study of Mus musculus with 12 samples.

Results

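LayerV-VI [12-P] is the name that the deposited cell table gives to one of the neuron types of the newborn mouse prefrontal cortex. Its members are all cells carrying that name, 1220 of 36263 cells, with 439 in the HET library, 508 in the HOM library and 273 in the WT library. The animals were pups at birth (P0), C57BL/6J in the sample labels and C57BL/6N in the study's methods. HET pups carried 1 copy and HOM pups 2 copies of a germline Myt1l allele in which a small CRISPR deletion in exon 6 shifts the reading frame, and WT pups carried none. Cells of 2 animals per genotype were pooled into 1 droplet library that reads the start of each transcript, and no label ties a cell to its animal. There are therefore no replicates. The values below are descriptions with no test, and genotype, animal, sex and library cannot be told apart. The genotype names are those of the deposited cell table. The study's text pairs these cell totals with the genotypes differently, so each direction below rests on the names in the table.

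Neurons of layers V and VI are among the first cortical neurons to settle, and they send axons out of the cortex or to its other regions. Tbr1 marks early-born layer VI and subplate neurons, Bcl11b (Ctip2) and Fezf2 mark subcerebral projection neurons of layer V, and Tle4 and Foxp2 mark corticothalamic neurons of layer VI. MYT1L is a zinc finger factor of neurons that represses genes of other lineages and recruits SIN3 and histone deacetylases.

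Depth differed between the libraries and bears on every comparison of genotypes. The median number of molecules per 12-P cell was 2812 in HET, 3476 in HOM and 1685 in WT, and 57.9%, 70.9% and 43.6% of the cells had at least 2000 molecules (called deep cells here). The median mitochondrial share was 3.96%, 2.84% and 4.16%. Xist, which is read from the inactive X of females, was above 0 in 1 HET, 0 HOM and 73 WT cells of the type, and in 20.2% of all WT cells, so the WT pool held female cells and the other pools hardly any. Cell barcodes shared between libraries numbered 199 to 240 over all cells and at most 1 over 12-P cells for any pair. Of the 1220 cells, 877 lay in 1 Leiden cluster of the deposited table, cluster 12, with 308 HET, 412 HOM and 157 WT cells and a median of 3772 molecules. Most of the other cells lay in clusters 4 and 6, with medians of 775 and 757 molecules.

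The cells matched their name only in part. Throughout, a level is the sum of a gene's deposited depth-corrected values over cells, per 1000000 of the sum over all genes. Tbr1, the marker given for the type, stood at 585 in HET, 484 in HOM and 790 in WT 12-P cells, against 221, 245 and 258 in the same libraries of LayerV-VI [18-P], the other deep-layer type. In all 3 libraries this was the highest level among 19 cell types, those of which every library held 50 cells or more. In deep cells, Tbr1 was above 0 in 66.1% of HET, 55.6% of HOM and 73.9% of WT 12-P cells, against 0.939%, 0.894% and 1.94% of immature astrocytes (13-P), which should lack it. The median depths were 4213, 4382 and 4202 molecules in the deep 12-P cells and 4689, 5702 and 4512 in those astrocytes. Bcl11b stood at 356, 472 and 461 in HET, HOM and WT 12-P cells, against 256, 275 and 306 in 18-P cells.

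Several other deep-layer genes were lower in 12-P than in 18-P cells. Tle4, a corepressor of layer VI corticothalamic neurons, stood at 71.5, 28.9 and 111 in HET, HOM and WT 12-P cells, against 376, 333 and 418 in 18-P cells. In deep cells it was above 0 in 6.30%, 3.61% and 12.6% of 12-P cells, against 58.0%, 58.2% and 56.2% of 18-P cells. Deep astrocytes had Tle4 in 6.34%, 3.04% and 9.68%, so its share in 12-P cells was near the astrocyte share of each library. Whether astrocytes express Tle4 themselves was not tested. Fezf2 was above 0 in 1.18%, 1.11% and 1.68% of the deep 12-P cells, against 30.6%, 35.8% and 29.4% of 18-P cells and at most 1.17% of astrocytes. Fezf2 in 12-P cells was thus near the astrocyte share too. Foxp2, Sox5, Hs3st4 and Syt6 were also lower in 12-P than in 18-P cells in each library. Sox5, for example, stood at 82.5, 74.4 and 114 in 12-P, against 333, 473 and 345 in 18-P cells. Subplate genes hardly appeared: the 10 subplate markers in the table summed to 18.3, 72.9 and 24.6, and 6, 4 and 6 of them were at 0.

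Some genes of young excitatory neurons were higher than in 18-P cells. Neurod1, a basic helix-loop-helix factor of newly born neurons, stood at 262, 188 and 255 in 12-P, against 21.4, 10.1 and 22.8 in 18-P cells. Slc17a6, the vesicular glutamate transporter VGLUT2, stood at 236, 194 and 172, against at most 15.4 in 18-P cells. Eomes, the factor of intermediate progenitors, was near 0, at 11.0, 4.6 and 9.2. As a list, however, the 12 intermediate progenitor genes were higher in 12-P cells. They summed to 960, 948 and 778 in HET, HOM and WT, against 315, 312 and 287 in 18-P cells. The mean of that sum over the other layer types was 405, 425 and 387. The 10 excitatory neuron genes summed to 3363, 3340 and 3137 in HET, HOM and WT 12-P cells, against 1680, 1913 and 1728 in 18-P cells. The 15 newborn neuron genes were not high, at 33727, 36401 and 29728, against 34862, 36616 and 29015 in 18-P cells. The mean of that sum over the other layer types was 36255, 38999 and 30964, above 12-P in each library. Over 2675 genes in HET and 3024 in HOM, Spearman's rho between levels in 12-P and in LayerII-IV [1-P] cells was 0.89 and 0.87, and between 12-P and 18-P levels 0.79 and 0.78. In WT, over 2340 genes, the values were 0.87 and 0.81. For SVZ1 (migrating) cells rho was 0.87 in HET, 0.87 in HOM and 0.82 in WT, so they were about as close as 1-P cells in HOM. The interneuron types Int3 and Int1 and the striatal types also lay above 18-P in HET and HOM, but not in WT. These values are across genes of libraries that share depth and handling, and genes are not independent. As a list, the 20 deep-layer genes summed to 2260, 2093 and 3036 in HET, HOM and WT 12-P cells, against 4038, 4711 and 4237 in 18-P cells, and none was at 0. Kitl, on the same list, stood at 89.8, 181 and 64.6, against 160, 179 and 206. The name was thus met by Tbr1 and Bcl11b and not by Tle4 or Fezf2, and the cells are called 12-P cells below.

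**Figure D1:**
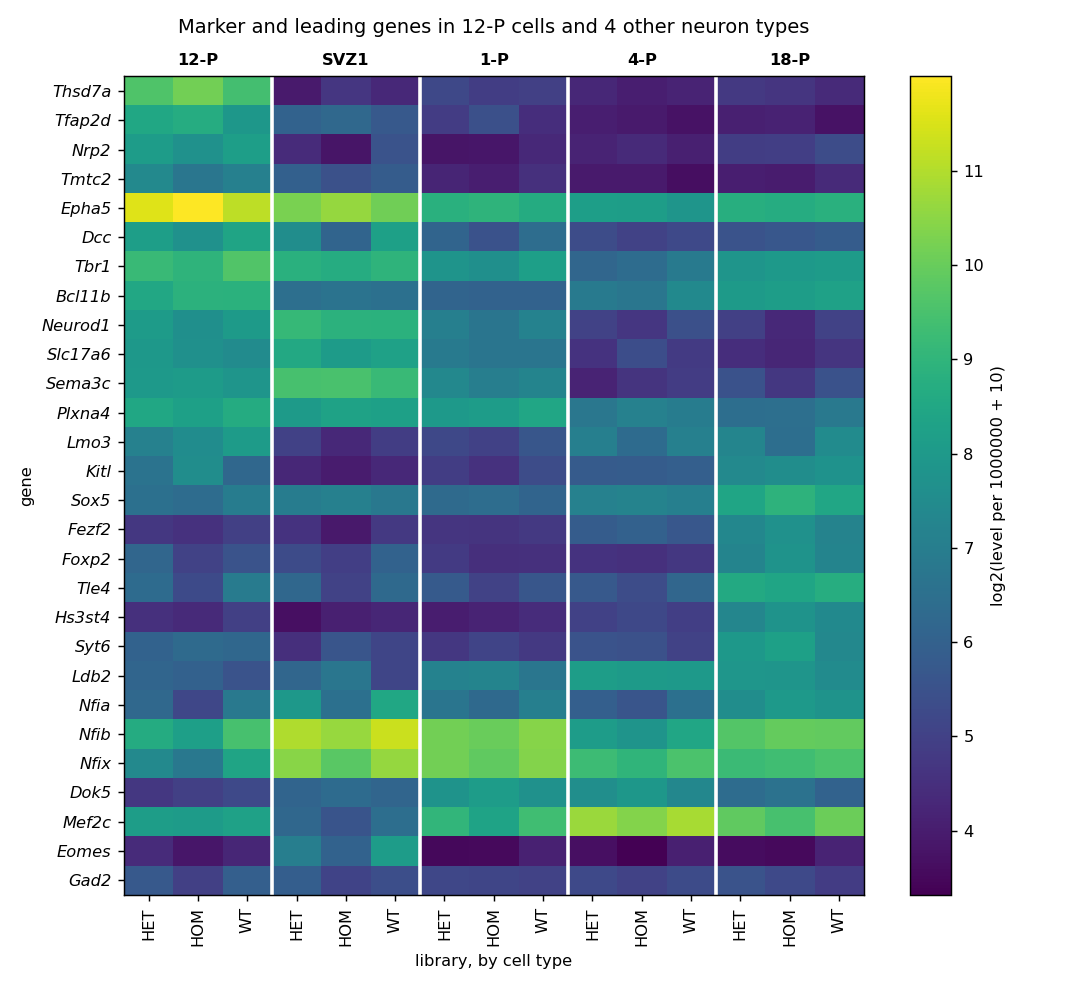
Levels of 28 genes (rows) in the HET, HOM and WT libraries (columns) of 12-P cells, SVZ1 (migrating) cells and the 3 other layer types; colour gives log2(level per 1000000 + 10). The top 8 rows, from Thsd7a to Bcl11b, are bright in 12-P cells, while Fezf2, Foxp2, Tle4, Hs3st4 and Syt6 are brightest in 18-P cells.

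Set against the mean of the 3 other layer types (1-P, 4-P and 18-P) within each library, 219 of 8373 genes (2.62%) were at least 2-fold higher in 12-P cells in all 3 libraries and 152 (1.82%) at least 2-fold lower. With trimmed-mean (TMM) scaling these counts were 124 and 222, so the split depends on the scaling. The types were clustered on the same genes, so the ratios describe the type and test nothing. The leading genes included several surface and guidance molecules. Thsd7a, a membrane protein with thrombospondin repeats, led the list. It stood at 777, 1134 and 674 in HET, HOM and WT 12-P cells, while its mean in the other layer types gave log2 ratios of 5.42, 6.31 and 5.60. Tfap2d, the delta member of the AP-2 transcription factors, stood at 350, 401 and 231, with log2 ratios of 4.96, 4.65 and 5.13. Nrp2, a co-receptor of class 3 semaphorins, stood at 266, 197 and 280, against 4.0, 4.4 and 10.1 in 1-P and 19.7, 20.8 and 30.8 in 18-P cells.

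Among the 19 types, Thsd7a and Tfap2d were highest in 12-P cells in each library. For Thsd7a the next type was Int3 [11-P], at 151, 175 and 227. Nrp2, Tmtc2 and Rasgef1b were not particular to 12-P outside the layers: the 2 striatal types reached similar levels, such as 219, 203 and 194 for Nrp2 in Striatal inh2 [7-P]. Striatal markers as a list (10 genes) summed to 1871, 1271 and 1827 in 12-P cells and to 953, 1017 and 886 in the other layer types, and their part in these ratios was not tested. The sum in 12-P came mostly from Meis2, at 1530, 1110 and 1565. Gad1 and Gad2, which make GABA, were low, with Gad2 above 0 in 4.72%, 2.22% and 3.36% of the deep cells, and in 3.99%, 4.11% and 3.87% of deep astrocytes.

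Upstream sequence of the 3 leading genes is printed because these genes set 12-P cells apart from the other layers. Each run covers bases -250 to -51 from a RefSeq transcript start (GRCm38.p6), on the strand of the gene. Thsd7a lies on chromosome 6 (12311610 to 12749410, minus strand), Tfap2d on chromosome 1 (19103022 to 19166346, plus strand) and Nrp2 on chromosome 1 (62703285 to 62818695, plus strand) in GENCODE M21. Capitals mark matches, on either strand, to AAAGTT, the core motif of MYT1L, to GGTGTGA, a T-box motif of the kind that TBR1 binds, or to TTGGCA, a binding site of NFI factors, which none of these runs held.
Thsd7a, chr6:12749304-12749503: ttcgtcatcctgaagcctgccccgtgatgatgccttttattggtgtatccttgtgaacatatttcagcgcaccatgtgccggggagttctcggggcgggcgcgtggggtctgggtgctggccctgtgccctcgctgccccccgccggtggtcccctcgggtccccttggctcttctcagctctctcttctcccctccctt
Tfap2d, chr1:19103883-19104082: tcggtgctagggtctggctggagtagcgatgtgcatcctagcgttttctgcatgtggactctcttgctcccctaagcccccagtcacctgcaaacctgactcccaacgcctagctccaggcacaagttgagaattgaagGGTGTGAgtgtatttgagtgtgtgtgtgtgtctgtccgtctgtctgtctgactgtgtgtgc
Nrp2, chr1:62703067-62703266: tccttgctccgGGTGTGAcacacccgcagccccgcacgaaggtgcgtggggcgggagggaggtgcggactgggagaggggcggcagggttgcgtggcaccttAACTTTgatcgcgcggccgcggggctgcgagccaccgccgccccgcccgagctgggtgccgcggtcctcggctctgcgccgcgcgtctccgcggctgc

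The Nrp2 run holds a T-box match at -239 and a MYT1L match, read on the opposite strand, at -148, and the Tfap2d run, before the third of its 3 RefSeq starts, holds a T-box match at -111. The runs before the other Tfap2d starts hold no match. Such matches are common. Of 32851 RefSeq promoters of 300 bases, 14.1% held AAAGTT, 3.98% GGTGTGA and 14.1% TTGGCA. Among the 239 promoters matched to genes at least 2-fold higher in 12-P cells these shares were 11.7%, 4.60% and 10.5%, and among the promoters of all genes in that comparison 9.21%, 3.26% and 10.3%.

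Other leading genes included Epha5 and Dcc. Epha5, a receptor of ephrin-A ligands, stood at 3065, 4084 and 2257 in HET, HOM and WT 12-P cells, against 1214, 1581 and 1108 in SVZ1 cells, the next type, and 425, 408 and 447 in 18-P cells. Dcc, the netrin receptor, stood at 284, 199 and 323, against 36.1, 41.1 and 48.2 in 18-P cells. SVZ1 cells had Dcc at 182, 59.0 and 294, so it was not particular to 12-P. Ndst3, which sulfates heparan chains, Pde1c, a calmodulin-dependent phosphodiesterase, Tafa1, a secreted protein of the brain, Ptpn13, a tyrosine phosphatase, and Cxcl12, the ligand of CXCR4, had their ratio nearest 0 over the libraries between 2.72 and 3.05. Cxcl12 was 3rd or 4th among the 19 types, since endothelial cells had far more (646, 724 and 764 in Endothelial1 [17-P], against 115, 159 and 89.2 in 12-P). In SVZ1 cells Cxcl12 stood at 80.6, 154 and 66.6. As a list, the 30 axon guidance genes summed to 6644, 7972 and 6126 in 12-P cells, against a mean of 2015, 2117 and 2283 in the other layer types. Epha5 alone made up 3065, 4084 and 2257 of these sums.

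Among the genes at least 2-fold lower in 12-P cells in all 3 libraries, the noncoding transcript 9130024F11Rik stood at 44.0, 19.7 and 27.7 in HET, HOM and WT 12-P cells, against 739, 733 and 766 in 1-P cells. Nrgn (neurogranin, a calmodulin-binding protein of dendrites) stood at 27.5, 21.3 and 9.2, against 325, 325 and 166 in 4-P cells. Necab1, a calcium-binding protein, stood at 14.7, 25.8 and 15.4, against 148, 214 and 140 in 18-P cells. Dok5, an adaptor of receptor tyrosine kinases, stood at 16.5, 21.3 and 27.7, against 212, 267 and 202 in 1-P cells. Dhrs3, a retinal reductase, was listed at 0 in all 3 libraries of 12-P cells, and Ptk2b, Hs3st2 and Fgfr2 were listed at 0 in WT and at 3.7 or below in HET and HOM.

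The leading genes also varied among 12-P cells. In deep cells, Thsd7a was above 0 in 69.7% of HET, 80.8% of HOM and 60.5% of WT 12-P cells, against at most 2.97% in any library of the other layer types and 0.704%, 1.79% and 0.645% of astrocytes. At least 2 of the 6 leading genes Thsd7a, Tfap2d, Nrp2, Epha5, Tmtc2 and Rasgef1b were above 0 in 88.6%, 90.0% and 81.5% of the deep 12-P cells, against 4.01%, 5.47% and 6.70% of the deep 18-P cells. In 12-P cells under 2000 molecules the shares were 28.6%, 47.3% and 32.5%, at medians of 779, 1050 and 703 molecules. These shallower cells divided by cluster: the shares were 60.0%, 80.3% and 57.7% in cluster 12 and 9.57%, 20.7% and 19.6% in other clusters. The 6 genes were chosen from the list above after its values were seen. SVZ1 (migrating) cells formed the second group of Leiden cluster 12, with 302 cells. Among deep SVZ1 cells of that cluster, 48.8%, 41.7% and 54.8% held at least 2 of the 6 genes, against 9.22%, 14.4% and 15.8% of deep SVZ1 cells in other clusters. Thsd7a was low in these SVZ1 cells (34.0, 54.7 and 60.2), while Tbr1 stood at 689, 514 and 894.

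**Figure D2:**
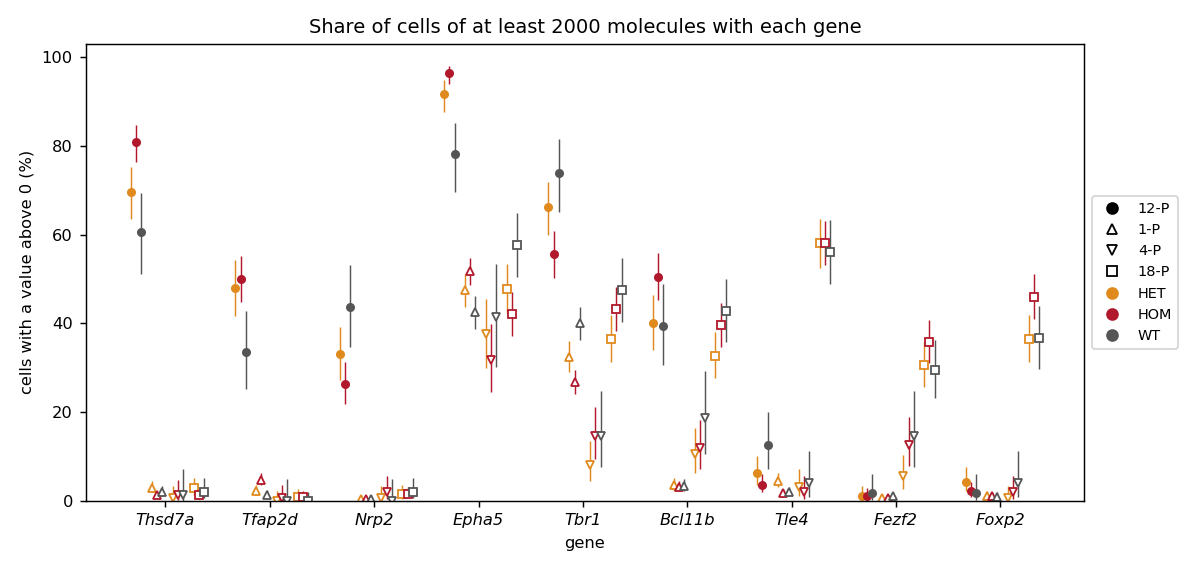
Share of deep cells (at least 2000 molecules) with a value above 0 for 9 genes (x axis) in 12-P cells (filled) and the 3 other layer types (open), by library; bars are exact 95% intervals, which cover counting error only. Thsd7a, Tfap2d and Nrp2 are common in 12-P cells and below 5% in the other layer types; Tle4, Fezf2 and Foxp2 are most common in 18-P cells.

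12-P cells made up 3.64% of HET cells (exact 95% interval 3.31% to 3.99%), 3.71% of HOM cells (3.40% to 4.04%) and 2.60% of WT cells (2.30% to 2.92%). The intervals cover counting error within 1 library and not the difference between animals. The order HOM, HET, WT held among deep cells, at 5.91% in HET, 6.26% in HOM and 3.25% in WT, and among layer II to VI cells, at 8.57%, 10.8% and 6.35%. Restricted to cells in which a Y-linked gene was read, which leaves female cells out, the shares were 5.20%, 5.75% and 3.32%, and the WT value rests on 20 cells. The order did not hold in cells under 1000 molecules, where the shares were 2.25% in HET, 1.23% in HOM and 2.10% in WT. Over all depths, 78.8%, 86.6% and 67.4% of 12-P cells had a cell type probability of at least 0.9. Cells of cluster 12 with this name made up 2.55%, 3.01% and 1.49%.

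**Figure D3:**
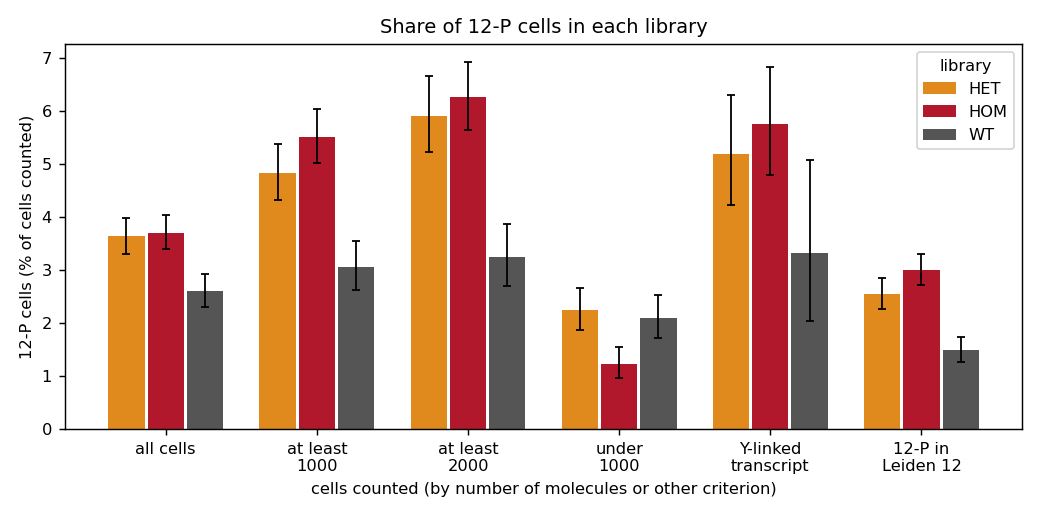
12-P cells as a percentage of the cells counted (y axis) in HET, HOM and WT libraries, for all cells and for cells chosen by number of molecules, Y-linked transcript or Leiden cluster; bars are exact 95% intervals for counting error. WT is lowest in 5 of the 6 sets, and HOM is lowest among cells under 1000 molecules, at 1.23%.

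Myt1l transcript itself stood at 530 in HET, 948 in HOM and 391 in WT 12-P cells, log2 ratios of 0.44 and 1.27 to WT. HOM was thus the highest library. The allele leaves the transcript in place, so its level does not check the genotype names. HOM over WT ratios of the other layer types were similar, at 0.93 in 1-P, 1.24 in 4-P and 1.12 in 18-P cells. In deep 12-P cells the levels were 613, 1034 and 607, so the HET and WT values were close there. In Y-linked 12-P cells the log2 ratios to WT were -0.65 in HET and 0.33 in HOM. The sign in HET was thus reversed, and the WT level there rests on 20 cells. Myt1, the second member of the family, stood at 38.5, 57.7 and 43.1, and St18, the third, was listed at 0 in all 3 libraries.

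Genes with a summed value of at least 50 over both libraries were compared between genotypes. In HET over WT, 27 of 3329 genes (0.811%) were at least 2-fold higher and 31 (0.931%) at least 2-fold lower. In HOM over WT, 89 of 3719 (2.39%) were at least 2-fold higher and 84 (2.26%) at least 2-fold lower. With TMM scaling the split was 34 and 25 in HET and 122 and 62 in HOM. The HET and HOM ratios share the same 273 WT cells, which are also the shallowest. In deep cells the counts were 13 and 22 in HET, and 67 and 53 in HOM, against the counts over all cells above. Past 2-fold in both sets were 3 of the 27 higher and 8 of the 31 lower genes in HET, and 36 of the 89 higher and 21 of the 84 lower genes in HOM.

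The NFI transcription factors, which act in the maturation of cortical neurons and glia, were lower in both mutant libraries. Nfib stood at 392 in HET, 289 in HOM and 698 in WT 12-P cells. Nfix stood at 161, 100.2 and 323, and Nfia at 66.0, 25.8 and 104.6. WT was the highest library for each of these genes and HOM the lowest, with HOM over WT log2 ratios of -1.27, -1.68 and -2.0 and HET over WT ratios of -0.83, -1.0 and -0.67. Nfia rests on small summed values, 17 in HOM against 34 in WT. Nfic, the last member of the family, was low, at 14.7, 16.7 and 15.4.

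The order of Nfib and Nfix was the same in deep cells and within cluster 12. In deep cells Nfib stood at 349, 248 and 737 and Nfix at 90.1, 78.6 and 297, and Nfib was above 0 in 32.3% of HET, 25.8% of HOM and 50.4% of WT deep cells. Nfix was above 0 in 10.2%, 9.44% and 26.9% of them. Deep astrocytes, which use NFI genes themselves, held Nfix in 19%, 11.4% and 16.1%. In Y-linked 12-P cells the HOM over WT ratios were -2.01 for Nfib and -1.08 for Nfix, with WT sums of 27 and 6. Within cluster 12, Nfib stood at 365, 260 and 517 and Nfix at 106, 76.4 and 204. In the other layer types the HOM over WT ratios of Nfib were nearer 0, at -0.38 in 1-P, -0.68 in 4-P and 0.03 in 18-P. Those of Nfix were -0.49, -0.54 and -0.21. Those of Nfia were -0.87, -1.08 and 0.23, so Nfia was past 2-fold lower in 4-P cells too. The HET over WT ratios of Nfia were -0.41, -0.68 and -0.22 there, against -0.67 in 12-P. A lower Nfia was thus not particular to 12-P. Nfix was higher in each of the other layer types than in 12-P cells, and Nfib in 1-P and 18-P but not in 4-P cells. Nfib in 1-P cells stood at 1133, 1033 and 1348. Whether cells of those types were counted among the WT 12-P cells was not tested.

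Other deep-layer genes were lower in HOM as well. Tbr1 stood at 484 in HOM 12-P cells, against 790 in WT, a log2 ratio of -0.71, and at 585 in HET, a ratio of -0.44. Its HOM over WT ratios were -0.60 in 1-P, -0.53 in 4-P and -0.08 in 18-P cells, so a lower level was not particular to 12-P. In deep 12-P cells the HOM ratio of Tbr1 was -0.99. In Y-linked 12-P cells its ratios were -0.26 in HOM and 0.06 in HET, with 20 WT cells. Tle4 had a ratio of -1.92, but its share of cells was near the astrocyte share in both libraries, as above. Of the 20 deep-layer genes, 10 were measured. In HOM, 7 had a ratio below 0 and 3 above it. At least 2-fold lower were 3 (Nfia, Tle4 and Nfib), and 1 (Kitl) was at least 2-fold higher, beside 2.26% and 2.39% of all genes. The median was -0.66, against -0.01 over all genes compared. In HET, 9 of the 10 were below 0, none past 2-fold, and the median was -0.45, against -0.03 over all genes. The medians of the same list in 1-P, 4-P and 18-P cells, each over the same 10 genes, were -0.49, -0.60 and -0.02 in HOM and -0.30, -0.27 and -0.22 in HET. Bcl11b hardly differed in HOM, at a ratio of 0.03, and Id4, an inhibitor of basic helix-loop-helix factors, had a ratio of -1.42, with levels of 160 in HET, 69.9 in HOM and 188 in WT.

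**Figure D4:**
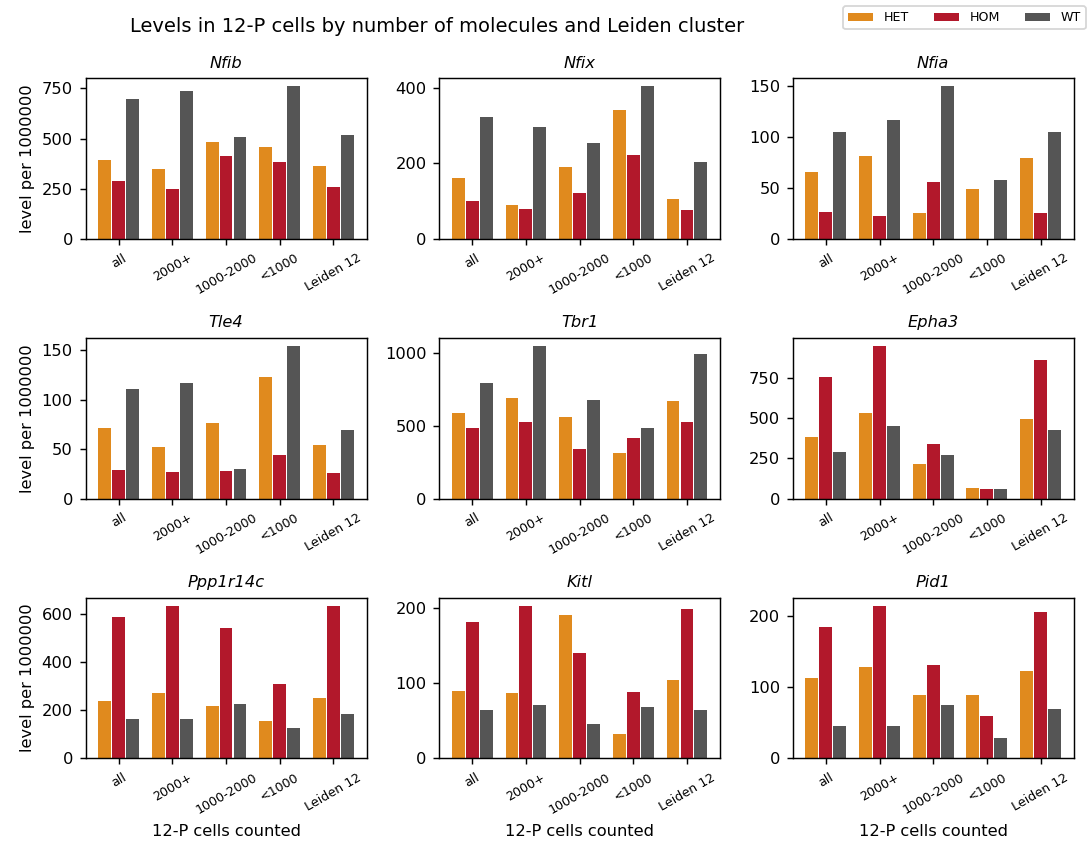
Levels per 1000000 (y axis) of 9 genes in HET, HOM and WT 12-P cells, for all cells, for 3 ranges of molecules per cell and for Leiden cluster 12 (x axis). Nfib and Nfix are highest in WT and lowest in HOM in each of the 5 sets, while Ppp1r14c is highest in HOM in each set; Nfia keeps that order except from 1000 to 2000 molecules, and Kitl is highest in HOM except in that same set.

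Among the genes with the highest HOM over WT ratios, Ppp1r14c, an inhibitor of protein phosphatase 1, stood at 236 in HET, 585 in HOM and 163 in WT 12-P cells, a log2 ratio of 1.83 in HOM. It was above 0 in 26.8% of HET, 52.8% of HOM and 16.8% of WT deep cells, against 12.4%, 8.94% and 11.6% of deep astrocytes, while the ratio was 0.30 in 1-P, 0.38 in 4-P and -0.06 in 18-P cells. Epha3, an ephrin receptor, stood at 381, 758 and 289, a ratio of 1.38 in HOM and 0.39 in HET. It was above 0 in 38.2%, 65.8% and 36.1% of deep 12-P cells, against at most 2.58% of astrocytes. In the 1-P, 4-P and 18-P cells its HOM ratios were 0.59, 0.79 and 0.03. Among Y-linked 12-P cells it was 0.39, and the WT level there rests on 20 cells. Its relative Epha5 had a HOM ratio of 0.85. Of the 20 axon guidance genes measured in HOM, 9 were above 0 and 11 below, with a median of -0.12. Epha3 alone was past 2-fold, beside 2.39% of all genes.

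Pid1, an adaptor that binds the lipoprotein receptor LRP1, stood at 114, 185 and 46.1 in HET, HOM and WT 12-P cells, from summed values of 62, 122 and 15. It was above 0 in 15.7%, 26.4% and 5.88% of deep cells, against 6.34%, 5.19% and 4.52% of astrocytes, so the WT value was near the astrocyte share. Kitl, the ligand of the receptor KIT, stood at 89.8, 181 and 64.6. Its share in deep cells was 9.84%, 21.9% and 8.4%, against 10.4% to 11.97% in astrocytes, so only HOM was above the astrocyte share. Whether astrocytes express Pid1 or Kitl was not tested, and the deep astrocytes held more molecules than the deep 12-P cells. Both genes were lower in HOM than in WT in the other layer types. Tafa1 stood at 103, 207 and 64.6 and Ptpn13 at 69.6, 143 and 49.2, so these leading genes of 12-P cells were highest in HOM. Thsd7a was too, with a HOM log2 ratio of 0.75, though of -0.43 in Y-linked cells. Nrp2 had -0.51 and Dcc -0.70, so the leading genes did not differ in one direction. Csrp2, a LIM protein, had a HOM ratio of 1.52, Sncb (beta-synuclein) 1.39, Ptpro, a receptor phosphatase, 1.29, and 2610307P16Rik 1.80.

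Txnip, which binds thioredoxin and limits glucose uptake, stood at 38.5, 228 and 70.7, so HOM was high and HET low. It belongs to a list of glycolysis and hypoxia genes, of which 12 were measured in HOM. All 12 had a ratio above 0, and 2 (Txnip and Eno1) were past 2-fold, beside 2.39% of all genes. The median was 0.71, against 0.82, 0.68 and 0.66 in 1-P, 4-P and 18-P cells. In HET, 8 of 11 were above 0, none past 2-fold, with a median of 0.18 in 12-P, against 0.46, 0.43 and 0.41 in the other types.

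**Figure D5:**
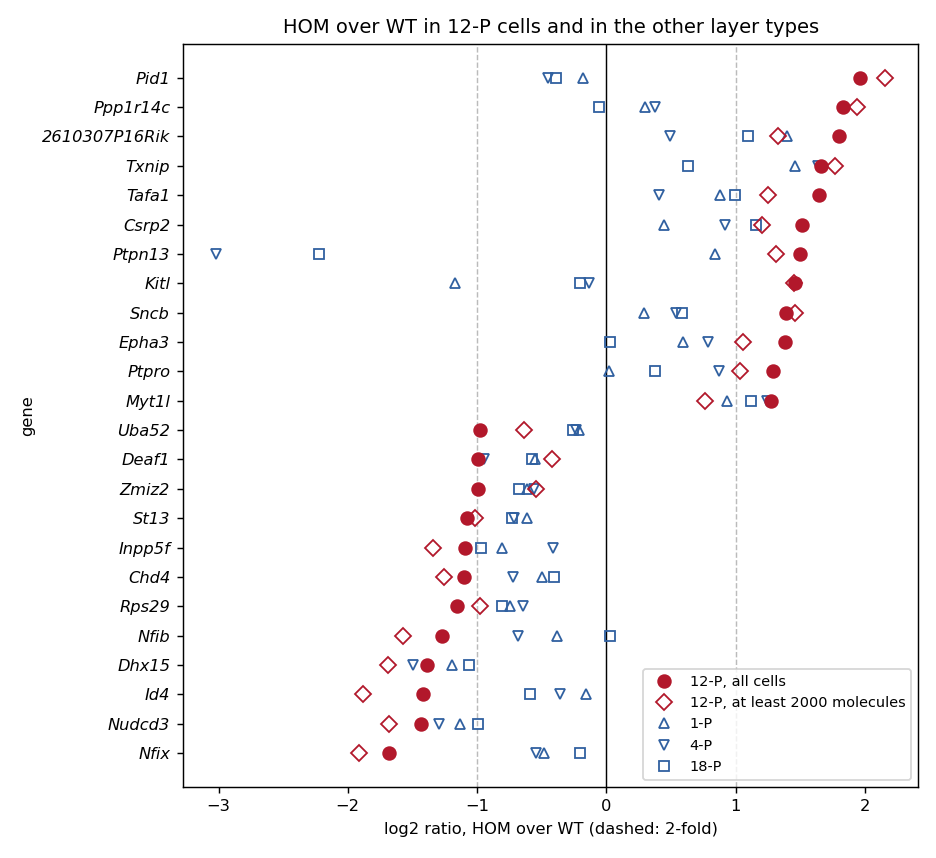
Log2 ratio of HOM over WT (x axis) for the 12 highest and 12 lowest named genes in 12-P cells (red, filled for all cells, open diamonds for deep cells) and in the 3 other layer types (blue). Dashed lines mark 2-fold. Nfix, Nfib and Id4 lie further left in 12-P than in the other types, and Pid1 and Kitl lie right of 0 in 12-P and left of 0 in the other types.

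The lowest genes in HOM beside Nfix, Id4 and Nfib included regulators of chromatin and RNA. Chd4, the ATPase of the NuRD complex, stood at 180, 149 and 320 in HET, HOM and WT 12-P cells, log2 ratios of -0.83 and -1.10. The ratios in the 1-P, 4-P and 18-P cells were -0.50, -0.72 and -0.40 in HOM. Nudcd3, a cochaperone of dynein, and Dhx15, an RNA helicase of the spliceosome, were low in each type: their HOM ratios were -1.44 and -1.39 in 12-P and -0.99 or lower in each other type. Rps29 stood at 1191, 679 and 1510. Of the 16 genes of the MYT1 family and its corepressors, 9 were measured in HOM, 5 above 0 and 4 below, with a median of 0.02.

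Cell adhesion genes split. Cntnap2, a neurexin-like adhesion protein, stood at 150, 213 and 89.2 in HET, HOM and WT 12-P cells, a HOM ratio of 1.23, and its HOM ratios in 1-P, 4-P and 18-P cells were 0.01, -0.27 and -0.99. Pcdh17 and Cdh10, both of the cadherin superfamily, had HOM ratios of -1.29 and -1.27, and 18-P cells had -1.31 and -1.28. Of the 25 genes on that list, 18 were measured in HOM, 10 above 0 and 8 below, with a median of 0.03. Of 21 synapse genes, 15 were measured, 9 above 0 and 6 below, none past 2-fold, with a median of 0.09. Of 17 ion channel genes, 8 were measured, 2 above 0 and 6 below, with a median of -0.08, against -0.56, -0.24 and -0.39 in 1-P, 4-P and 18-P cells. Of 30 autism risk genes, 24 were measured, 7 above 0 and 17 below. Pogz was past 2-fold higher and Naa15 past 2-fold lower, 1 gene each way beside 2.39% and 2.26% of all genes, and the median was -0.19, against -0.41, -0.52 and -0.41 in the other types. Of 25 Wnt pathway genes, 9 were measured, 2 above 0 and 7 below. Fzd3, a Wnt receptor, and Sfrp1, a secreted inhibitor, were past 2-fold lower, at -1.22 and -1.07, beside 2.26% of all genes. The ratio of Fzd3 was -1.30 in deep cells and -1.51 in Y-linked cells. That of Sfrp1 was -0.27 in deep cells and 1.17 in Y-linked cells, and its summed values were 28 in HOM and 29 in WT. The Wnt median was -0.19, against -0.32, -0.67 and -0.31 in 1-P, 4-P and 18-P cells.

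HET had fewer genes past 2-fold than HOM, as counted above, and most of the genes named for HET had ratios under 2-fold. Tmem132a stood at 82.5 in HET, 120 in HOM and 197 in WT 12-P cells, a HET ratio of -1.25. Lmnb1 (lamin B1) stood at 89.8, 134 and 209, a ratio of -1.22, and Kif5a, a kinesin of axonal transport, at 97.1, 138 and 200, a ratio of -1.04. These genes were lower in HET than in WT in the 3 other layer types as well, with ratios between -0.23 and -0.85. Lmo3, a LIM factor of deep layers, stood at 132, 175 and 258, a HET ratio of -0.97. Among genes with a summed value of at least 100, the highest HET ratios with the same sign in deep cells were 0.92 for Prelid1, a mitochondrial lipid carrier, 0.91 for Zfhx4, a homeobox factor, 0.88 for Tmem223 and 0.80 for Taldo1, an enzyme of the pentose phosphate pathway. Zfhx4 stood at 147, 123 and 76.9. Genes of smaller sums were also past 2-fold, among them Pid1 at a ratio of 1.27 and Isl1 at 1.90, and the HET ratios of Isl1 in 1-P, 4-P and 18-P cells were 2.28, 1.02 and 1.46. Pde1c, one of the leading genes of the type, stood at 187 in HET, 82.0 in HOM and 114 in WT.

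Lists in HET differed in their medians, beside -0.03 over all genes. Those of cell types other than deep-layer neurons were -0.29 for layer II to IV neurons (8 genes measured), 0.35 for intermediate progenitors (4), 0.39 for striatal neurons (3) and -0.39 for astrocytes (4). In 1-P, 4-P and 18-P cells they were -0.25, -0.11 and -0.40 for layer II to IV neurons and 0.25, -0.08 and 0.20 for intermediate progenitors. For striatal neurons they were 0.51, 0.11 and 0.74, and for astrocytes -0.04, -0.02 and -0.03. Red blood cell genes (3) had -0.80 in 12-P, against -0.50, -0.38 and -0.43. Ribosomal RNA-like transcripts (4) had -1.20, against -0.98, -1.05 and -1.28, so several of these shifts were not particular to 12-P. Of 14 synapse genes measured, 6 were above 0 and 8 below, with a median of -0.12. Camk2b alone was past 2-fold lower, at -1.41, beside 0.931% of all genes. It rested on summed values of 20 in HET and 32 in WT. Its ratio was -0.33 in deep cells and 0.76 in Y-linked cells. Of 19 axon guidance genes, 6 were above 0 and 13 below, none past 2-fold, with a median of -0.11. Of 21 autism risk genes, 5 were above 0 and 16 below, none past 2-fold. Their median was -0.23, against -0.41, -0.36 and -0.29 in 1-P, 4-P and 18-P cells. The 15 newborn neuron genes had medians of 0.10 in HET and 0.12 in HOM, and the 17 cytoskeleton genes 0.23 in both. In 1-P, 4-P and 18-P cells the HET medians were 0.20, 0.19 and 0.10 for newborn neuron genes and 0.22, 0.20 and 0.24 for cytoskeleton genes. The 12 mitochondrially encoded genes measured were all below 0 in HOM, 3 of them past 2-fold, beside 2.26% of all genes. Their HOM median was -0.70, against -0.47, -0.46 and -0.45 in 1-P, 4-P and 18-P cells, and their HET median was -0.01. The HOM median was -0.40 in deep 12-P cells and -0.49 in 12-P cells of cluster 12, so its distance from the other types was smaller there.

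Markers of other cell types were present at various levels in HET, HOM and WT 12-P cells. Radial glia markers summed to 918, 905 and 784, against 1722, 1807 and 1305 in the other layer types, and astrocyte markers to 658, 727 and 775, against 1216, 1148 and 1227. Inhibitory neuron markers summed to 385, 266 and 406, against 676, 1245 and 648, while striatal markers, given above, were higher in 12-P than in the other layers. The summed level of microglial markers was 29.3, 22.8 and 55.4 in HET, HOM and WT, and that of oligodendrocyte lineage markers was 78.8, 42.5 and 108. Meningeal markers summed to 125, 302 and 135, of which Ptgds, a prostaglandin synthase, gave 1.8, 74.4 and 6.2. Red blood cell genes summed to 482, 847 and 803, and the 4 ribosomal RNA-like transcripts to 13354, 12240 and 30906, so WT had the most ribosomal RNA-like signal. Their part in the ratios above was not tested. Isl1, a factor of striatal neurons, stood at 108 in HET, 36.4 in HOM and 27.7 in WT, and 33 of the summed HET value of 59 came from cells under 1000 molecules. Trh, a neuropeptide precursor, was listed at 0 in HET, at 54.7 in HOM and at 0 in WT. Of its summed HOM value of 36, 35 came from 2 deep cells.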

How the data were processed

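Single cells of the prefrontal cortex were profiled in 12 samples, which are 4 sequencing files for each of 3 libraries (HET, HOM and WT). Per the submitters' processing notes, Cell Ranger 4.0.0 with mm10 and Seurat 4.0 were used, and the authors removed blood cells and cells with too few or too many genes or much mitochondrial RNA. Cell types were assigned with scANVI and clusters with Leiden. The deposited matrix holds whole numbers on a score scale, already corrected for depth: their totals are 825 to 1952 per cell, against 499 to 17602 molecules per cell in the deposited counts of the cell table, so no count model or raw-count interval was used. The authors' deposited comparison tables (fold changes and p-values) were not used; the deposited percent and fraction columns (mitochondrial percent, cell type probability as a fraction) were used as given.

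Values were summed over cells per library and type and scaled to 1000000. Ratios added 0.5 to each sum, and genes with a sum of at least 50 over both libraries were compared. A difference of 2-fold was used as the call, since 1 library per genotype allows no test. The matrix does not give raw molecules per gene, so cells were not thinned, and cells of at least 2000 molecules were used as a check. Named genes were Myt1l, Myt1, St18 and markers, the 12 highest and 12 lowest HET and HOM ratios (sum of at least 100, same sign in deep cells), the 15 highest and lowest in 12-P against other layer types, and up to 4 members of each list with the largest ratio. The rankings leave out mitochondrially encoded, ribosomal RNA-like, sex-linked and red blood cell genes. Some genes (Nfic, Thsd7a by genotype, single members of lists) were named after their values were seen. The members, the 31 gene lists and the rules were chosen with earlier results of these data known. Shares have exact Clopper-Pearson 95% intervals. Doublets were not called here, because raw counts per gene were not used. Promoters came from RefSeq and positions from GENCODE M21. Python 3.11.15, numpy 2.4.6, pandas 2.3.3 and scipy 1.17.1 were used, and the ratio was tested on simulated data. Alternatives were other scalings, minimum sums, added constants and cell subsets. Some genes that the rule for named genes selects are not reported here.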

Additional observations from a re-analysis of the deposited data

Results flagged for a closer look

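In 4 genes the HOM over WT difference was past 2-fold in 12-P cells and had the opposite sign in each of the 3 other layer types. The difference between cell types was not tested. Pid1 had a log2 ratio of 1.96 in 12-P, and of -0.18, -0.45 and -0.39 in 1-P, 4-P and 18-P cells. Kitl had 1.46 in 12-P, and -1.17, -0.13 and -0.20 in the other types. Pogz, a zinc finger protein of heterochromatin on the autism risk list, had 1.02 in 12-P, and -0.38, -1.02 and -0.02 in the others, from summed values of 55 in HOM and 13 in WT. Ppp1r1b (DARPP-32), a marker of striatal projection neurons, had -1.16 in 12-P, and 0.94, 0.56 and 1.83 in the others, from summed values of 29 in HOM and 32 in WT. In cells of at least 2000 molecules the 12-P ratios were 2.16 for Pid1, 1.45 for Kitl, 1.07 for Pogz and -1.64 for Ppp1r1b.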

How the results depend on the processing

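No paired analysis was possible because the file numbers 1 to 4 of a genotype are runs of 1 library. The ratio of the share of 12-P cells in HOM to that in WT was 1.43 over all cells and turned to 0.586 in cells under 1000 molecules (chosen after seeing the data). Counts of genes past 2-fold followed the minimum sum: with a sum of 20 they were 209 higher and 181 lower in HET, 307 and 370 in HOM, and 345 higher in 12-P against the other layers; with a sum of 200 they were 0 and 4, 8 and 9, and 68 higher and 78 lower. Fewer cells gave fewer genes to compare. In HET the higher genes numbered 13 in cells of at least 2000 molecules, 9 in cells of at least 1000, 10 at a probability of at least 0.9, and (chosen after seeing the data) 12 in cluster 12 and 7 in its deep cells; Y-linked cells gave 14 and 8. In HOM the lower genes numbered 53 in cells of at least 2000 molecules and also 53 in the deep cells of cluster 12, and Y-linked cells gave 24 and 18. In 12-P against the other layers, TMM scaling gave 124 higher genes and cells of at least 2000 molecules 82, while cluster 12 gave 369 higher and 237 lower. Over all 12-P cells, at least 2 of the 6 leading genes were above 0 in 63.3%, 77.6% and 53.8% of HET, HOM and WT cells (88.6%, 90.0% and 81.5% in deep cells), and Tbr1 in 50.1%, 47.0% and 52.4% (66.1%, 55.6% and 73.9%). Ptpro reversed in HOM to -0.39 in Y-linked cells. Of 543 ratios of named genes between genotypes under these alternatives, 531 moved by less than 1.5 times, and of 512 list medians, 508. A change of the minimum sum cannot alter a gene's ratio, and a change of scaling shifts all genes alike. Those settings could therefore hardly move a ratio, and the genes were chosen for the same sign in deep cells. In Y-linked cells, 4 ratios of named genes stayed the same, 3 moved and 1 reversed. Of the ratios of 12-P to the other layers for the leading and lowest genes, 38 moved by more than that and 142 did not; 15 of the 38 were in cells of at least 2000 molecules, 15 against 18-P cells alone and 8 in cluster 12. Of the counts of genes, 26 moved and 38 did not, and of the shares, 25 moved, 1 reversed and 20 did neither. The causes were not tested.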
